A study of Sus scrofa with 31 samples.

Results

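GNLY, GZMB, NKG7, KLRK1 and CX3CR1, 5 genes of cytotoxic lymphocytes, were followed through the storage of pig hearts. They were taken by symbol from the deposited tables and are 5 of 21313 genes listed in arm 1 of the study; 4 of the symbols stand among the 25149 genes listed in arm 2. They were selected on their own readout, the change of each heart from 0 h in arm 1 and the levels in the arm 2 groups, so those values are a description here and carry no weight as a test. In arm 1, biopsies of 6 hearts taken at 0, 12, 24 and 48 h were sequenced (24 libraries): pigs 1, 3 and 5 carry the label SCS, usually read as static cold storage, and pigs 2, 4 and 6 the label HOPE, usually read as hypothermic oxygenated perfusion. The labels do not spell either out. Arm 2 has 7 libraries taken at the end of a 2 h normothermic machine perfusion (NMP). Of these, 6 followed HOPE storage (a pair for each of 3, 24 and 48 h) and 1 followed SCS storage of 24 h. Breed, age and drugs given to the pigs are not stated in the labels. Every heart had 1 treatment, so the animal and the treatment can be separated only through its 0 h biopsy. The labels also state that biopsies were taken when an experiment ended, while the titles give each arm 1 pig 4 times. The labels name myocardium as the tissue and cardiomyocytes as the cell type; markers of cardiomyocytes, leukocytes and endothelium were all counted in every library.

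Natural killer (NK) cells and cytotoxic T cells kill by releasing granules onto a target cell. Granulysin (GNLY) damages membranes, granzyme B (GZMB) is a serine protease that starts apoptosis in the target, and NKG7 is a membrane protein of the granules that takes part in their release. KLRK1 encodes NKG2D, an activating receptor for stress-induced ligands of the MIC and ULBP families. CX3CR1 is the receptor for fractalkine (CX3CL1), a chemokine that endothelial cells carry on their surface, and it is also made by monocytes and macrophages.

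In the Sscrofa11.1 assembly all 5 are annotated as protein-coding genes. GNLY lies on chromosome 3 (59067327 to 59072034), KLRK1 on chromosome 5 (61646691 to 61655386), NKG7 on chromosome 6 (58496089 to 58497827), GZMB on chromosome 7 (74705499 to 74708781) and CX3CR1 on chromosome 13 (23944386 to 23957567). GZMH, another granzyme gene, follows GZMB on chromosome 7 (74723800 to 74727396) after a gap of 15018 bases. The sources do not say whether the counting shared reads between related granzyme genes, so granzyme values carry that uncertainty.

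Arm 1 libraries held 19722065 to 35099406 reads in genes. Values below are normalised counts, a gene's reads divided by the size factor of its library; they are not per length, so levels are compared within a gene only. Mitochondrially encoded genes took 29.0% to 39.5% of the total in HOPE libraries and 33.1% to 82.4% in SCS libraries, and the highest share was that of the 48 h SCS library of pig 5. The 0 h HOPE library of pig 6 had the highest GNLY, NKG7 and KLRK1 of the HOPE libraries. In arm 2 the SCS library stands apart: its 7 measured cardiomyocyte markers summed to 2499 TPM (a level scaled for gene length and library total), against 38765 to 62202 TPM in the 6 HOPE libraries.

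GNLY was lower in every stored HOPE biopsy than in the 0 h biopsy of the same heart, while SCS hearts stood above their start in 7 of 9 stored biopsies, or in 4 of 9 with values scaled to total reads (none of the 48 h biopsies). For 0, 12, 24 and 48 h in turn, GNLY stood at 256, 88.9, 221 and 151 normalised counts in pig 2 (HOPE), at 204, 92.3, 92.9 and 97.7 in pig 4 (HOPE), and at 589, 139, 135 and 157 in pig 6 (HOPE). Pig 6 started highest and ended at 26.6% of its start. Pig 2 was at 34.7% of its start after 12 h, at 86.3% after 24 h and at 59.1% after 48 h. The SCS hearts ran through 335, 343, 531 and 425 (pig 1), 721, 702, 1094 and 658 (pig 3), and 289, 342, 331 and 591 (pig 5). The groups overlapped before storage, and every HOPE heart lay below every SCS heart afterwards. The 48 h means were 135 ± 32.6 in HOPE and 558 ± 120 in SCS hearts (SD, n = 3 each).

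GZMB was lower in the HOPE hearts before storage began. Its 4 values in time order were 16.0, 6.65, 7.93 and 8.82 normalised counts in pig 2, 4.19, 2.01, 2.84 and 2.71 in pig 4, and 7.29, 3.43, 6.14 and 1.97 in pig 6, all HOPE. Pig 1 (SCS) had 31.2, 20.8, 36.1 and 26.9, pig 3 (SCS) had 57.2, 42.2, 59.3 and 23.02, and pig 5 (SCS) had 20.4, 22.9, 26.6 and 32.2. No HOPE value reached the lowest SCS value at any time, including 0 h. The HOPE values rest on 2 to 21 reads per library, so single values are imprecise. GZMB passed the minimum mean of 10 normalised counts used for testing only through the SCS hearts: its mean was 33.2 over the 12 SCS libraries and 5.83 over the 12 HOPE libraries, 11 of which were under 10. A gene that passes in this way had to differ between the treatments, so no p is given for GZMB. It is left out of the counts of calls below that are of 4 genes. Where a count is of 5 genes, GZMB is in it and adds nothing.

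NKG7 had smaller differences between stored HOPE and SCS hearts than GNLY or GZMB. The HOPE hearts went through 72.4, 61.5, 50.2 and 57.3 normalised counts (pig 2), 97.5, 74.9, 78.0 and 61.0 (pig 4), and 151, 91.9, 83.9 and 71.9 (pig 6). The SCS hearts went through 143, 176, 184 and 125 (pig 1), 190, 192, 153 and 195 (pig 3), and 119, 117, 144 and 90.6 (pig 5). Before storage the groups overlapped through pig 6, and at each later time they did not. After 48 h the HOPE hearts kept 79.1%, 62.6% and 47.5% of their start and the SCS hearts 87.1%, 102% and 76.3%.

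KLRK1, the NKG2D gene, was lowest in the last biopsy of pigs 2 and 4 and in the first stored biopsy of pig 6. It stood at 47.3, 42.4, 26.4 and 17.6 normalised counts in pig 2 (HOPE), at 47.2, 26.7, 18.4 and 14.2 in pig 4 (HOPE), and at 101, 15.1, 28.7 and 23.6 in pig 6 (HOPE). By 48 h these hearts kept 37.3%, 30.2% and 23.4% of their start. The SCS hearts had 55.1, 48.5, 70.8 and 49.0 (pig 1), 110, 82.0, 111 and 87.2 (pig 3), and 120, 103, 63.6 and 129 (pig 5), and kept 88.9%, 79.5% and 107%. The lowest stored SCS value (48.5) lay above the highest stored HOPE value (42.4), and how many of all genes did so was not counted. Means after 48 h were 18.5 ± 4.76 in HOPE and 88.3 ± 39.8 in SCS hearts (SD, n = 3 each).

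CX3CR1 had the most even course, lower at each later time in each HOPE heart. It went through 120, 88.9, 79.3 and 57.3 normalised counts in pig 2, through 127, 90.9, 75.2 and 39.3 in pig 4, and through 116, 59.7, 49.1 and 30.5 in pig 6. That left 47.6%, 31.0% and 26.4% of the start. The SCS hearts had 70.7, 87.0, 60.7 and 42.7 (pig 1), 158, 140, 170 and 105 (pig 3), and 114, 99.1, 104 and 105 (pig 5). They too were all below their start after 48 h, at 60.4%, 66.6% and 92.3% of it. HOPE and SCS hearts overlapped in CX3CR1 at every time; before storage the HOPE hearts lay between pigs 5 and 3 (SCS), and later pig 1 (SCS) lay among them. The 48 h means were 42.4 ± 13.7 in HOPE and 84.4 ± 36.2 in SCS hearts (SD, n = 3 each).

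**Figure D1:**
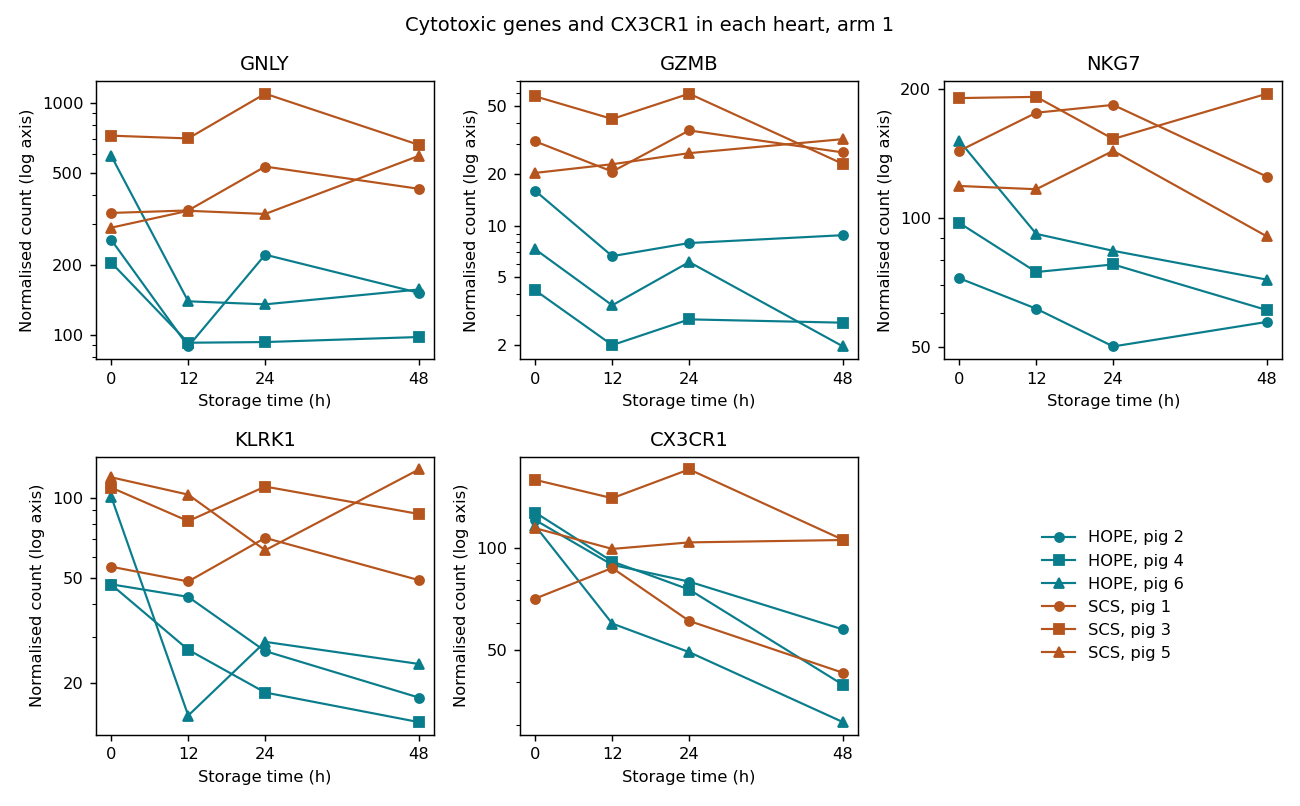
Normalised counts (log axis) of the 5 genes against storage time in hours, 1 line per heart, HOPE in teal and SCS in brown, arm 1. The HOPE lines lie below the SCS lines after 0 h for GNLY, GZMB, NKG7 and KLRK1; for CX3CR1 the line of pig 1 (SCS) then runs among the HOPE hearts, and GZMB is apart at 0 h already.

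The timing differed between the genes within the HOPE hearts. Between the 12 h and the 48 h biopsy CX3CR1 went to 64.4%, 43.3% and 51.2% of its 12 h level in pigs 2, 4 and 6. GNLY went to 170%, 106% and 112% of its 12 h level in the same hearts, so its lower level was in place by the first stored biopsy. KLRK1 went to 41.6% and 53.3% in pigs 2 and 4 and to 157% in pig 6, whose 12 h value was its lowest. CX3CR1 was lowest in the last biopsy of 3 of 3 HOPE hearts, while GNLY was lowest in the 12 h biopsy of 2 of them and in the 24 h biopsy of pig 6.

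Counted per heart, 5 of 5 genes were lower than at 0 h in 3 of 3 HOPE hearts after 12, 24 and 48 h. Over the 14141 genes tested in arm 1, 14.6%, 11.7% and 13.8% were lower in 3 of 3 HOPE hearts at these times; the count of 5 follows from how the genes were chosen, and nothing is read from it. In the SCS hearts the number lower in 3 of 3 was 1 gene after 12 h (KLRK1), 0 after 24 h and 1 after 48 h (CX3CR1), with 19%, 15% and 16.2% of all genes tested. The SCS counts depend on scaling and were 2, 3 and 5 genes with values scaled to total reads. Leaving out pig 1 or pig 5 gave 2 genes after 12 h, leaving out pig 3 gave 1 gene after 24 h and 2 after 48 h, and leaving out pig 5, or only its 48 h library, gave 3 after 48 h. How many of all genes were lower on that scale or with fewer hearts was not counted, so nothing is read from these counts. Biopsies are mixtures of cells, and fewer cytotoxic cells and less RNA per cell cannot be told apart in any of these values.

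HOPE and SCS hearts were compared at each time with limma on log2(value + 1), adjusted by Benjamini-Hochberg over all 14141 genes. These comparisons share the stored HOPE libraries with the changes above, and their calls were known when the genes were chosen, so they are no independent support. GZMB differed by −1.93 ± 0.58 before storage and by −2.60 ± 0.58, −2.66 ± 0.58 and −2.56 ± 0.58 at the later times, HOPE minus SCS (log2, SE, n = 3 against 3), with the limit given above. Of the other 4 genes, limma, edgeR and DESeq2 called 0 before storage, and limma called 0% of all genes. An unadjusted limma p under 0.05 was then held by 0 of the 4 and by 1020 of all 14141 genes. After 12 h limma called 0 of the 4 and 0.0141% of all genes, all lower. With edgeR 0 and with DESeq2 1 of the 4 were called, beside 0.0141% and 0.608% of all genes. At 12 h 3 of the 4 had an unadjusted limma p under 0.05, beside 2311 of all 14141 genes. GNLY then stood at −2.05 ± 0.46 (limma adjusted p = 0.227). Without pig 6, limma called 2 of the 4 after 12 h, beside 10.1% of all genes.

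After 24 h, 2 of the 4 genes were called lower in the HOPE hearts, beside 0.771% of all genes called lower, 1.27% called higher and 2.04% in either direction. GNLY differed by −2.03 ± 0.46 (limma adjusted p = 0.0365) and NKG7 by −1.19 ± 0.31 (limma adjusted p = 0.0493). KLRK1 was just outside the threshold at −1.68 ± 0.44 (limma adjusted p = 0.0511) and inside it with the pig as a replicate block (limma adjusted p = 0.0332). The number called was 0 of 4 when pig 2, 3, 4 or 5 was left out, beside 0.0141% to 0.0495% of all genes. It was 3 of 4 when pig 1 or 6 was left out, beside 19.3% and 17% of all genes.

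After 48 h, 3 of the 4 genes were called lower, beside 2.41% of all genes called lower, 3.84% called higher and 6.25% in either direction. KLRK1 differed by −2.12 ± 0.44 (limma adjusted p = 0.0182), GNLY by −2.04 ± 0.46 (limma adjusted p = 0.0238) and NKG7 by −1.03 ± 0.31 (limma adjusted p = 0.0499). CX3CR1 differed by −0.91 ± 0.39 and was not called (limma adjusted p = 0.137). The number called was 0 of 4 without pig 2, 3, 4 or 5, beside 0.0354% to 0.361% of all genes, and 0 of 4 without the 48 h SCS library of pig 5 alone, beside 0.099%. It was 4 without pig 1 and 3 without pig 6, beside 23.3% and 22.4% of all genes.

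**Figure D2:**
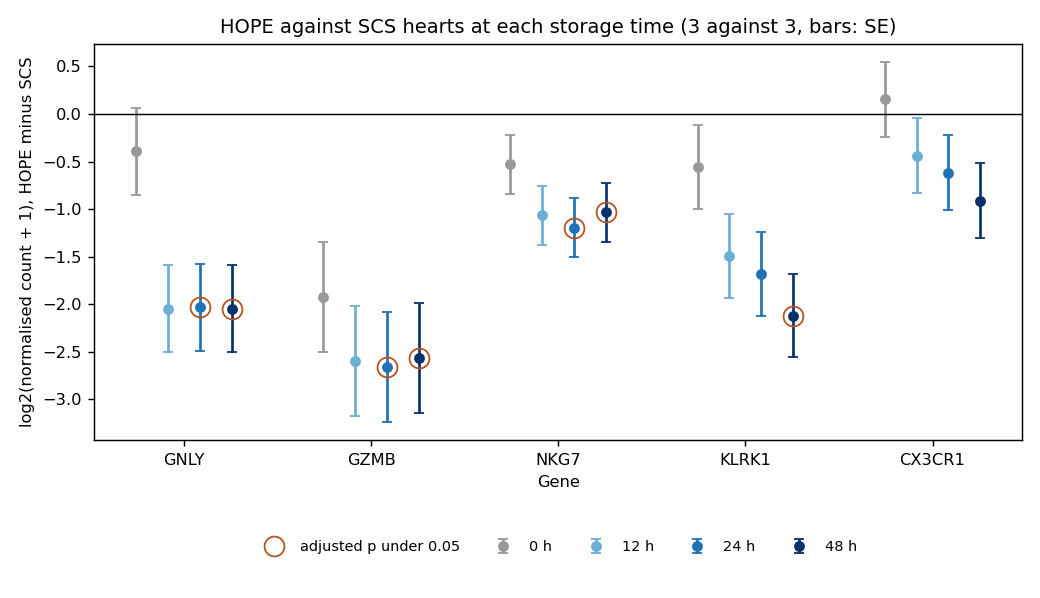
Difference between HOPE and SCS hearts in log2(normalised count + 1) for each gene at 0, 12, 24 and 48 h, with bars of 1 SE (3 hearts against 3); rings mark a limma adjusted p under 0.05. GNLY is near −2 at every time after 0 h, and CX3CR1 has no ring. GZMB starts at −1.93 before storage and passed the minimum mean only through the SCS hearts, so its rings at 24 and 48 h carry no weight.

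Scaling moved these differences. With values scaled to total reads the median of all genes itself shifted to 0.47, 0.39 and 1.12 (log2, HOPE minus SCS) after 12, 24 and 48 h, and 0 of 5 genes passed at any time, beside 0.00707%, 0.0212% and 57.4% of all genes after 12, 24 and 48 h. After 48 h on that scale GNLY stood at −0.93, GZMB at −1.55 and KLRK1 at −1.02, each below 0 and further below the shifted median. NKG7 after 48 h (0.068) and CX3CR1 after 12 h (0.034) and 48 h (0.19) changed sign on that scale, and both lay below the shifted median. The mitochondrial share of the stored SCS libraries is part of the totals used there.

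All 3 HOPE hearts lay below all 3 SCS hearts for GNLY, GZMB, NKG7 and KLRK1, 4 of the 5 genes, after 12, 24 and 48 h, as did 12%, 12.9% and 10.2% of all genes tested; GZMB adds nothing to this count. Before storage it was seen in GZMB alone among the 5, and in 6.19% of all genes. With each group's 0 h level subtracted, the difference in change after 48 h, HOPE minus SCS, was −1.65 ± 0.65 for GNLY, −1.56 ± 0.62 for KLRK1 and −1.07 ± 0.56 for CX3CR1 (log2, SE). It was −0.63 ± 0.82 for GZMB and −0.50 ± 0.44 for NKG7. Each SE is from the fit without the pig as a block. That fit takes the biopsies of a heart as independent, although they deviated together, so the SE does not measure the spread of changes within hearts. Limma called 0 of the 15 differences in change (5 genes, 3 times) after adjustment over all genes. An unadjusted limma p under 0.05 was held by 4 of the 15, GNLY at all 3 times and KLRK1 after 48 h. The 3 for GNLY share the same 0 h libraries, and how many of all genes had such a p was not counted. These contrasts contain the changes on which the genes were selected, so nothing is read from the 4.

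Most other listed genes of the cytotoxic programme had lower mean levels in the HOPE hearts. A list of 38 further NK and granule genes, drawn up with earlier results of these data known, matched 33 rows in arm 1, and 25 reached the minimum mean. Of these 25, FASLG, IL12RB2, KLRG1, SH2D1A and XCL1 (5 genes) reached it only through the SCS libraries and had to lie lower in HOPE, so the list is described over all 33 rows. Their median difference, HOPE minus SCS, was −0.41 before storage and then −0.97, −1.15 and −0.88 (log2), with 26, 27, 29 and 26 of the 33 below 0, while the median of all genes tested lay between −0.02 and 0.02. Limma called 0 of the 25 at 0 and 12 h. An unadjusted limma p under 0.05 was held by 0 and 11 of them, beside 1020 and 2311 of the 14141 genes tested. The 25 include the 5 genes that had to lie lower, so nothing is read from the 11. The genes called at later times are not among those 5. Beside 0.771% of all genes called lower and 1.27% called higher after 24 h, 4 of the 25 were called lower and 0 higher. They were CD244, an NK cell receptor (−2.02 ± 0.42, limma adjusted p = 0.0317), CTSW, a protease of cytotoxic cells (−1.60 ± 0.30, limma adjusted p = 0.0282), CCL4, a chemokine they secrete (−1.69 ± 0.44), and TBX21, the transcription factor T-bet (−2.13 ± 0.55), the last pair with a limma adjusted p = 0.0493. After 48 h 2 were called lower, beside 2.41% of all genes, and 0 higher, beside 3.84%. These 2 were PRF1 and CD247, a signalling chain of NK and T cell receptors (−1.12 ± 0.33, limma adjusted p = 0.0499). Against their own start, 29, 26 and 30 of the 33 rows were below 0 in the HOPE hearts (medians −0.43, −0.78 and −0.67) and 22, 18 and 24 in the SCS hearts (medians −0.09, −0.02 and −0.33).

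PRF1 encodes perforin, which lets granzymes into the target cell. In time order it stood at 19.1, 4.16, 12.3 and 16.2 normalised counts in pig 2, at 16.8, 10.03, 9.93 and 4.07 in pig 4, and at 42.9, 13.7, 15.4 and 5.91 in pig 6, all HOPE. The SCS hearts had 64.5, 39.6, 33.3 and 31.6 (pig 1), 45.5, 41.0, 100.2 and 43.6 (pig 3), and 40.8, 40.7, 22.2 and 40.9 (pig 5). Every stored HOPE value was below every stored SCS value, and how many of all genes did so was not counted. Pigs 2 and 4 lay below all SCS hearts before storage already, and pig 6 lay among them. The stored HOPE values rest on 5 to 22 reads per library, so single values are imprecise. PRF1 was lower in HOPE hearts after 48 h by −2.22 ± 0.53 (limma adjusted p = 0.0279). Some NK cell receptor genes were barely counted: KLRD1 had 0 reads in 19 of 24 libraries, and NCR1 averaged 12.5 normalised counts in SCS and 6.89 in HOPE libraries. IL2RB, an interleukin receptor chain of NK cells that other cells also make, differed by 0.29 ± 0.43 after 48 h (limma adjusted p = 0.684).

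GZMH, the neighbour of GZMB, did not separate HOPE from SCS hearts. Against its own start it was lower in every stored HOPE biopsy, at 20.6% to 85.1% of it. In the SCS hearts it was lower in all of them after 12 and 48 h (56.3%, 45.0% and 57.2% after 48 h). After 24 h it was lower in pigs 1 and 5 and higher in pig 3. Before storage it had 23.6, 32.5 and 170 normalised counts in pigs 2, 4 and 6 (HOPE) and 28.1, 80.7 and 138 in pigs 1, 3 and 5 (SCS). In the last biopsy it had 16.2, 19.0 and 63.0 against 15.8, 36.3 and 78.9, a difference of −0.40 ± 0.82 (limma adjusted p = 0.783), and the groups overlapped both times.

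Of 12 listed genes for ligands of CX3CR1 and NKG2D and their processing, 4 were measured in arm 1. They were CX3CL1 (fractalkine), ADAM10 and ADAM17, proteases that shed it from the cell surface, and ULBP1, a ligand of NKG2D. Limma called 0 of the 4 at any time. An unadjusted limma p under 0.05 was held by 2 of the 4 after 48 h and by 0 at the other times. At 48 h 3934 of all 14141 genes had one, so nothing is read from the 2. CX3CL1 stood at 211, 185, 239 and 184 normalised counts in pig 2, at 127, 118, 150 and 189 in pig 4, and at 368, 247, 205 and 281 in pig 6, the HOPE hearts. In the SCS hearts CX3CL1 went through 285, 279, 111 and 38.0 (pig 1), 328, 197, 338 and 218 (pig 3), and 353, 355, 370 and 105 (pig 5). CX3CL1 thus ended at 13.3%, 66.4% and 29.8% of its start in SCS hearts and at 87.0%, 149% and 76.2% in HOPE hearts. Its 48 h difference, HOPE minus SCS, was 1.15 ± 0.51 (limma adjusted p = 0.151), opposite in sign to that of CX3CR1, and neither was called. ULBP1 averaged 13.1 normalised counts and differed by −0.39 ± 0.68 after 48 h (limma adjusted p = 0.739).

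Markers of other blood cells moved beside these genes. Of 15 T cell markers 10 were tested, with medians of −0.63, −1.12, −1.27 and −0.44, HOPE minus SCS, in time order. Against their own start their medians were −0.67, −0.75 and −0.88 in HOPE hearts after 12, 24 and 48 h. In SCS hearts they were −0.23, −0.13 and −0.71, so these markers were lower after 48 h under both treatments. CD6 (−1.96 ± 0.38, limma adjusted p = 0.0282) was called lower after 24 h, as was CD27 (−2.77 ± 0.72), which passed the minimum mean only through the SCS libraries, and CD2 (−1.39 ± 0.40, limma adjusted p = 0.0447) after 48 h. The summed T cell markers ranged from 731 to 869 in SCS and from 375 to 1184 in HOPE hearts before storage, and from 462 to 690 and from 193 to 814 in the last biopsies. The 10 pan-leukocyte markers had medians of −0.50, −0.74, −0.50 and −0.08, with RAC2 called lower after 12, 24 and 48 h and CORO1A after 24 and 48 h. Their sum ranged from 4656 to 5405 in SCS and from 3280 to 4763 in HOPE hearts before storage, and from 3098 to 5227 and from 2858 to 3981 in the last biopsies. The part of these cell types in the results for the 5 genes was not tested.

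Monocyte and macrophage markers, which share CX3CR1 with cytotoxic cells, did not follow its course in the HOPE hearts. Their 12 tested genes had a median change from the start of 0.10, 0.06 and 0.32 in HOPE hearts after 12, 24 and 48 h. Per heart the 48 h medians were −0.13, 0.20 and 0.70 in pigs 2, 4 and 6. Against SCS the 48 h median was 0.37, with ITGAM called higher (1.18 ± 0.24, limma adjusted p = 0.0167). Their sum ranged from 8283 to 9769 in HOPE and from 9037 to 12718 in SCS hearts before storage, and from 9353 to 13311 and from 4520 to 16156 in the last biopsies. Of 9 neutrophil markers, 5 were matched and 0 reached the minimum mean. Red cell markers summed to 23.6 to 55.9 in HOPE hearts before storage and 176 to 704 in the last biopsies, against 34.5 to 72.0 and 36.4 to 107 in SCS hearts. Endothelial markers were below 0 in 11 of 11 genes before storage, HOPE minus SCS, with a median of −0.81, and in 8 of 11 after 48 h, with a median of −0.18. The part of these markers in the results was not tested either.

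**Figure D3:**
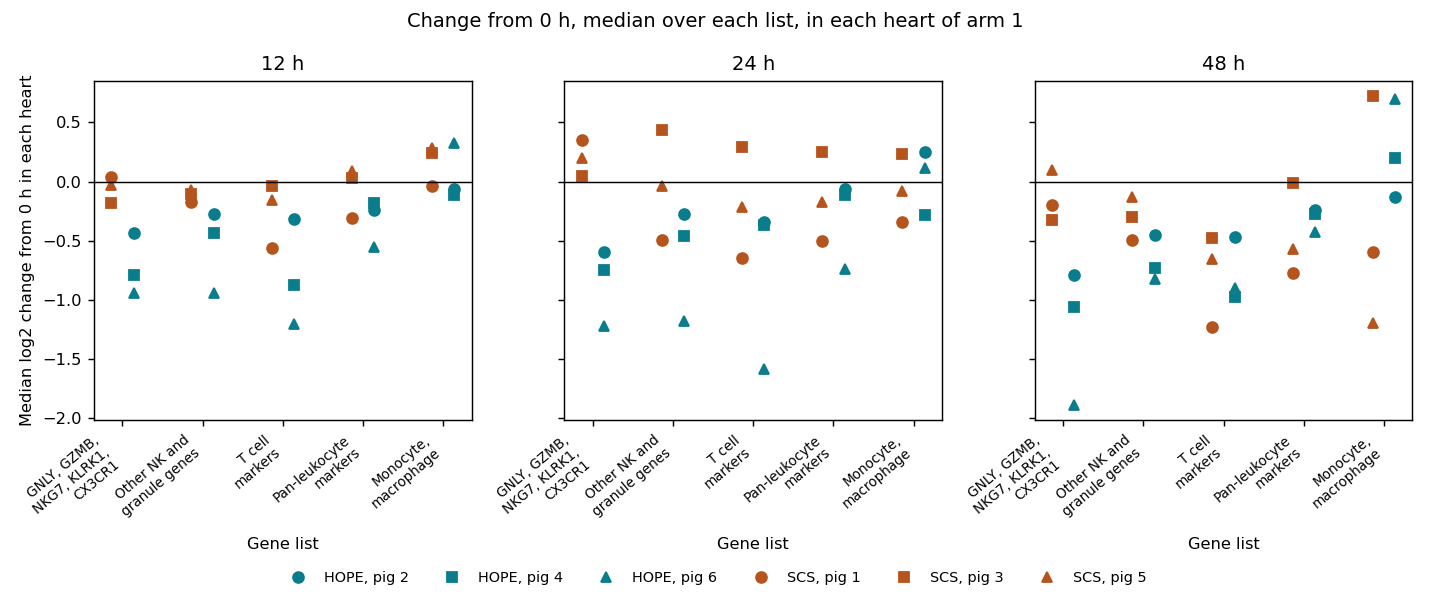
Median log2 change from 0 h over the genes of each list in each heart of arm 1 at 12, 24 and 48 h, HOPE in teal and SCS in brown, marker shape by pig. In the HOPE hearts at 48 h the 5 genes are at −0.79, −1.06 and −1.89. The other NK and granule genes lie between −0.82 and −0.45 there, and the T cell markers between −0.98 and −0.47. FASLG, IL12RB2, KLRG1, SH2D1A and XCL1 in the first of these lists and CD27 in the second reached the minimum mean only through the SCS libraries. The pan-leukocyte markers lie between −0.42 and −0.24, and the monocyte and macrophage markers between −0.13 and 0.70. In the SCS hearts at 48 h the T cell markers lie between −1.23 and −0.47.

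Set against the pan-leukocyte median of the same heart, the log2 change of the 5 genes after 48 h was lower in 15 of 15 gene and heart combinations under HOPE (median −0.82, range −1.63 to −0.09). Under SCS it was lower in 4 of 15 (median 0.45, range −1.27 to 1.59). The counts were 13 of 15 under HOPE and 9 of 15 under SCS after 12 h, and 14 of 15 and 5 of 15 after 24 h. The T cell markers also fell further than the pan-leukocyte markers in the HOPE hearts after 48 h. Their medians were −0.47, −0.98 and −0.90 in pigs 2, 4 and 6, against −0.24, −0.28 and −0.42. The 25 tested NK and granule genes stood at −0.45, −0.73 and −0.82, and 5 of the 25 reached the minimum mean only through the SCS libraries. The 15 combinations are 5 genes in the same hearts, and how many of all genes did so was not counted. These counts are a description, since the HOPE changes chose the 5 genes.

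Across the 24 arm 1 libraries of both treatments, which share pigs, times and preparation, the log2 levels of the 5 genes were positively correlated. The genes were chosen on their HOPE changes, so the values of r are a description. Pearson's r of log2 levels ran from 0.45 for NKG7 with CX3CR1 to 0.87 for GNLY with GZMB. In levels the 3 pairs of CX3CR1 with a granule gene were the lowest. Over the 18 changes from 0 h the order differed, and r ran from 0.41 for GZMB with NKG7 to 0.83 for GNLY with KLRK1. CX3CR1 with GNLY, GZMB and NKG7 then had 0.72, 0.51 and 0.79. The genes most like the mean of the 5 (each scaled) were NHERF1, a scaffold protein under the cell membrane (r = 0.93), PRF1 (r = 0.89), SUMO2 (r = 0.89), SPN, the leukocyte surface protein CD43 (r = 0.89), and C3orf38 (r = 0.89). RAC2 (r = 0.88), TWF1 (r = 0.87), DYNLT3 (r = 0.87), RAB5C (r = 0.87) and LIMD2 (r = 0.87) completed the first 10 of 12019 genes compared. The closest gene was NHERF1 for GNLY (r = 0.90), GNLY for GZMB (r = 0.87), RAC2 for NKG7 (r = 0.87), RAB5C for KLRK1 (r = 0.87) and TLK1 for CX3CR1 (r = 0.82). C1QTNF2 and MAX followed for GNLY, KLHL5 and LDHA for GZMB, RAC1 and PRDX1 for NKG7, LDLRAD3 and NHERF1 for KLRK1, and PNRC2 and the NK cell receptor CD226 for CX3CR1. Genes that most cells use, such as SUMO2 and LDHA, stand among them.

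Arm 2 gave values after warm perfusion in other libraries. There the row with the symbol GZMB carries a gene ID that arm 1 and the reference table name GZMH, so it is described as GZMH, and KLRK1 was not analysed. After HOPE storage of 3 h GNLY had 6.83 and 12.8 TPM in replicates 1 and 2, after 24 h it had 5.18 and 13.1 TPM, and after 48 h it had 16.0 and 11.5 TPM. The SCS library had 35.4 TPM of GNLY, above all 6 HOPE libraries. In the same order GZMH had 0.897 and 2.77, 0.328 and 3.41, and 3.49 and 2.43 TPM, and 13.1 TPM after SCS. NKG7 had 3.98 and 5.38, 3.59 and 3.88, and 4.76 and 4.72 TPM, and 8.89 TPM after SCS, so all 3 granule genes were highest in the SCS library. CX3CR1 was lowest there: it had 0.755 and 0.188, 0.552 and 0.479, and 0.381 and 0.730 TPM after HOPE and 0.170 TPM after SCS. With a mean of 0.465 TPM it was under the minimum of 1 TPM and was not tested. Per length, GNLY was the highest of the 4 genes in all 7 libraries and CX3CR1 the lowest in 6, the exception being the first library after 24 h of HOPE, where GZMH was lower.

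Between HOPE times in arm 2, limma on log2(TPM + 1) over 10986 genes called 0 of the 3 tested genes and 0% of all genes in each of the 3 comparisons. Of all genes, 1501 (24 against 3 h), 839 (48 against 3 h) and 577 (48 against 24 h) had an unadjusted p under 0.05; among the 3 genes none did, and no other tool was run. GNLY differed by −0.16 ± 0.46, 0.49 ± 0.46 and 0.65 ± 0.46 in these comparisons. For GNLY and GZMH the replicates of 3 h and of 24 h lay further apart than the means of any 2 times. For NKG7 the 24 h pair overlapped neither the 3 h nor the 48 h pair. Its differences were −0.25 ± 0.27 (24 against 3 h) and 0.28 ± 0.27 (48 against 24 h). How many of all genes had pairs apart in this way was not counted, so nothing is read from it.

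The SCS group of arm 2 is 1 library with no spread of its own, and its levels belong to the readout on which the genes were selected, so its differences from the pair after 24 h of HOPE are a description. They were 1.97 ± 0.57 for GNLY, 2.55 ± 0.72 for GZMH and 1.06 ± 0.33 for NKG7 (log2, SE from a limma fit with 3 residual degrees of freedom, which assumes that the lone library varies like the HOPE groups). All 3 passed that fit's threshold, beside 1.8% of all genes called higher, 24.6% called lower and 26.4% in either direction, and nothing is read from it. The number was 0 when either 3 h library, either 48 h library or the first 24 h library was left out, and 1 without the second 24 h library. Of the further NK and granule genes 14 were tested here and 12 were higher in the SCS library (median 0.99), with CCL5, a lymphocyte chemokine (1.82 ± 0.45, limma adjusted p = 0.0256), SRGN, the proteoglycan that packs granule proteins (1.62 ± 0.41, limma adjusted p = 0.0278), and TNFSF10, the death ligand TRAIL (2.32 ± 0.43, limma adjusted p = 0.0103), called higher and 0 called lower. CX3CL1 had 10.7, 6.64, 39.4, 15.3, 10.8 and 14.8 TPM in the HOPE libraries and 17.5 TPM in the SCS library, and was not called (limma adjusted p = 0.552).

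The same SCS library differed from HOPE in its markers of other cells. Its 7 cardiomyocyte markers had a median of −4.48, the pan-leukocyte markers 0.88 (7 of 7 higher), the fibroblast markers 1.18 (6 of 6 higher) and the red cell markers 5.34 (3 of 3 higher), and the median of all genes was −0.73. With library medians set equal, GNLY differed by 2.71, GZMH by 3.29 and NKG7 by 1.81. The part of the lower cardiomyocyte RNA in the higher TPM of these genes was not tested.

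**Figure D4:**
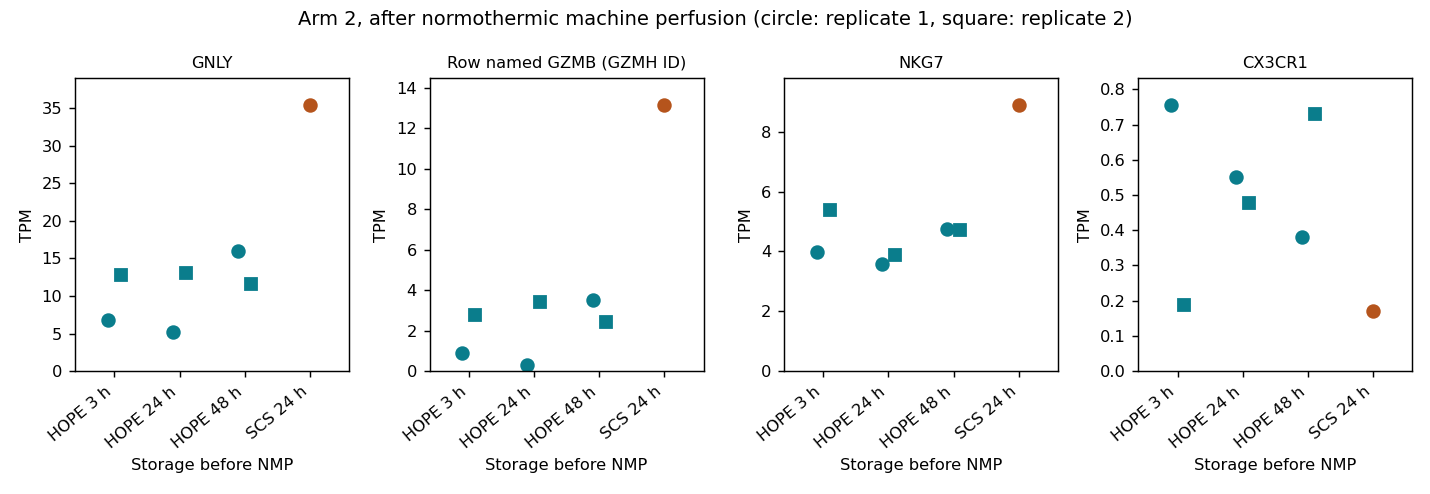
TPM of GNLY, GZMH (the row with the symbol GZMB), NKG7 and CX3CR1 in the 7 arm 2 libraries by storage before NMP, circles for replicate 1 and squares for replicate 2, each axis starting at 0. The single SCS library is highest for the first 3 genes (35.4, 13.1 and 8.89 TPM) and lowest for CX3CR1 (0.170 TPM).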

How the data were processed

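The members and the gene lists were chosen with earlier results of these data known. For arm 1 the authors deposited normalised counts, a signal: gene counts divided by a size factor, per the file headers and the values. Whole reads came back for 100% of values (tolerance 1e-06). Arm 2 values are headed as normalised too, but each deposited column sums to 1e+06, so they were read as TPM, and their depth is unknown. The submitters' processing notes name HISAT2 2.2.1, featureCounts 2.0.6, DESeq2 and Sscrofa11.1, among other tools, without roles. Kits differed between the arms, per the labels' protocols, so tests stayed within an arm; ERCC spike-ins were not used. The arm 2 table has 11 further sample columns with no match in the labels, which were left out.

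Each arm was fitted once with limma 3.58.1 in R 4.3.3 (lmFit, contrasts, eBayes with trend) on log2(value + 1), which understates changes of low genes. Genes needed a mean of at least 10 (arm 1, 14141 genes) or 1 TPM (arm 2, 10986 genes), and the threshold was an adjusted p of 0.05 (Benjamini-Hochberg, two-sided). The fit was tested on simulated data. Alternatives were total-count and TMM scaling, other pseudocounts and filters, edgeR 4.0.16, DESeq2 1.42.0 (both on the recovered reads), fewer libraries and the pig as a block. Counts without GZMB, the list over all its rows and per-heart changes scaled to total reads were added after seeing the data. Biopsies of a pig come from the same heart, and 36 of 36 same-pig pairs deviated together (r 0.232 to 0.730), so the pig number pairs them. Whether arm 2 libraries came from separate hearts is not stated in the labels; p-values there measure the spread between libraries. Named were the 5 members, list genes that passed in a comparison (else the 3 highest), measured ligands, and the 3 genes (10 for the mean) most correlated over 24 libraries; KLRD1, NCR1, IL2RB and GZMH were added after their values were seen. Positions came from a RefSeq table of Sscrofa11.1. Symbols for 109 arm 1 genes came from a separate reference table of gene names, matched on gene ID. No library was identical to another.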

Additional observations from a re-analysis of the deposited data

Results flagged for a closer look

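At 24 h GNLY and GZMB had changes of opposite sign in the 2 treatments: in 3 of 3 HOPE hearts both were below their 0 h value and in 3 of 3 SCS hearts both were above it. For GNLY the difference in change, HOPE minus SCS, was −1.64 ± 0.65 (log2, SE; limma adjusted p = 1 over all genes), with hearts at −0.21, −1.13 and −2.12 under HOPE and 0.66, 0.60 and 0.20 under SCS. For GZMB it was −0.74 ± 0.82, with hearts at −0.93, −0.44 and −0.21 under HOPE and 0.21, 0.05 and 0.37 under SCS. Neither difference passed the test, and the GZMB changes rest on 4 to 21 HOPE reads per library. Each SE is from the fit without the pig as a block, which does not use the pairing of biopsies within a heart. The HOPE changes are those on which the genes were selected, and GZMB passed the minimum mean only through the SCS libraries. How many of all genes split in this way was not counted. With values scaled to total reads the SCS changes were 0.24, 0.36 and −0.18 for GNLY and −0.20, −0.18 and 0.0075 for GZMB in pigs 1, 3 and 5, so the split does not hold on that scale.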

How the results depend on the processing

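Counts of members here are of 5 and include GZMB, which passed the minimum mean only through the SCS libraries. No member was called at 0 h, and 0 of 15 differences in change were called, under each alternative run. With total-count scaling the members called were 0 at 24 h and 0 at 48 h, beside 3 and 8119 of all genes, with only the 6 libraries compared 0 and 0, beside 0 and 0 of all genes, and without the 48 h SCS library of pig 5 (added after seeing the data) 0 at 48 h. At 12 h DESeq2 called 2 and edgeR 0. Leaving out 1 pig gave 0 to 3 called at 12 h (3 without pig 6, beside 1431 of all genes against 2), 0 to 4 at 24 h and 0 to 5 at 48 h; calls over all genes moved with them, from 2 without pig 3 to 2726 without pig 1 at 24 h. With the pig as a replicate block 0, 0, 4 and 4 members were called at 0, 12, 24 and 48 h, and 0, 6, 1396 and 1628 of all genes, against 0, 2, 288 and 884 without it; the block changed no member's call other than that of KLRK1 at 24 h. edgeR called 219 and 841 genes and DESeq2 1521 and 1931 at 24 and 48 h. Members lower in every SCS heart numbered 2, 3 and 5 at 12, 24 and 48 h with total-count scaling. They numbered 1 to 2, 0 to 1 and 1 to 3 leaving out 1 pig, and 3 at 48 h without that library of pig 5. The HOPE counts stayed at 5. How many of all genes were lower under these alternatives was not counted, so nothing is read from these counts. In arm 2, against SCS, 1 gene was called with a mean of at least 10 TPM (1 gene tested), 0 with no filter and 0 to 1 leaving out 1 library; the label number as a replicate block called 3, and same-numbered libraries share only a number (r 0.0608 to 0.179). Signs turned with total-count scaling for CX3CR1 at 12 h (0.034) and 48 h (0.19) and NKG7 at 48 h (0.068). Leaving out 1 pig, CX3CR1 at 0 h ranged from −0.15 (without pig 1) to 0.42 and GNLY at 0 h from −0.85 to 0.012 (without pig 3). Leaving out 1 arm 2 library, 24 against 3 h ranged from −0.75 to 0.44 for GNLY and from −1.01 to 0.72 for GZMH, NKG7 at 48 against 3 h from −0.15 to 0.21 and GZMH at 48 against 24 h from −0.17 to 1.56; with library medians set equal (added after seeing the data) NKG7 at 48 against 3 h was −0.044. Leaving out the SCS library of arm 2 gives no value for its own comparison. The causes were not tested. Values of single genes kept sign and side of the threshold in 375 cases, lost the call in 73, gained it in 13 and turned in 12.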
